A study of Mus musculus with 8 samples.

Results

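Voltage-gated calcium channels open when a neuron depolarises and admit the calcium that triggers transmitter release, shapes firing and signals to the nucleus. Each channel is built around a large pore-forming alpha1 subunit, and in the Cav1 and Cav2 families auxiliary beta and alpha2delta subunits help to bring it to the membrane and to the synapse. The genes described here were 10 of the 18301 genes of the deposited table, chosen by name. They were 8 genes for alpha1 subunits (Cacna1a, Cacna1b, Cacna1c, Cacna1d, Cacna1e, Cacna1g, Cacna1h and Cacna1i) and 2 genes for alpha2delta subunits (Cacna2d1 and Cacna2d2). All 10 passed the filter on low counts in both assays, with 71 to 4557 estimated counts per gene and library.

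Mouse neurons at day 8 in vitro gave libraries of ribosome footprints, the mRNA fragments protected by translating ribosomes, and of total RNA. They were grown from CGR8 embryonic stem cells and treated with cycloheximide (100 µg/ml, 5 minutes) to halt ribosomes. The neurons were labelled as an Eif4g1/Eif4g3 double knockout (DKO) or as wildtype (WT). The products of both genes are eIF4G scaffolds, which help to recruit the ribosome to capped mRNA. Footprints of DKO, footprints of WT, RNA of DKO and RNA of WT had 2 libraries each, taken to come from 4 cultures. The culture codes in the labels are numbers after a c for both DKO cultures and for WT replicate 1, and only "WT" for WT replicate 2. Nothing in the labels says that cultures of 1 genotype were differentiated independently, so the p-values cover only library-to-library spread, which may be technical.

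The footprint libraries held 10490535 to 19753419 counts and the RNA libraries 14762047 to 44786643. WT replicate 2 stood apart from the other 3 cultures in both assays: on the first principal component, which held 56% of the variance in footprints, it scored 34.7 against -14 to -9.09 for the others. The genotype differences of all 10 genes without it are given after those with it. Levels are given in CPM, counts scaled to a library's total over the genes that passed the filter and by its TMM factor. Whole-gene counts of Eif4g1 were low in DKO replicate 1 only. They were 154 and 287 CPM in DKO footprints against 299.8 and 263 CPM in WT footprints. Eif4g3 was not low in either, at 164 and 172 CPM in DKO footprints against 169 and 153 CPM in WT footprints (log2 difference 0.07 ± 0.13, and -0.05 ± 0.13 in RNA). Such whole-gene counts do not show whether a short exon is missing, so they do not check the genotype label. Pan-neuronal markers such as Map2 and Tubb3 were abundant, and their summed footprint level was 6841 to 7223 CPM in DKO and 6269 to 7563 CPM in WT. The label calls the neurons cortical and glutamatergic. Slc17a7, the vesicular glutamate transporter of the mature cortex, and Tbr1, a transcription factor of deep-layer cortical neurons, were at or near 0 (at most 0.218 and 1.04 CPM in any library). Slc17a6, the transporter of other glutamatergic neurons, reached 74.3 to 234 CPM in footprints, and Gad1, which makes GABA, reached 173 to 189 CPM. Of the other listed GABAergic markers, Gad2 (132 to 167 CPM), Slc32a1 (215 to 248 CPM) and Sst (113 to 198 CPM) were also present in footprints. Dlx1, Dlx2 and Dlx5 were near 0 there, at no more than 1.24, 0.218 and 0.338 CPM. Astrocyte markers summed to 1664 to 1737 CPM in DKO footprints and 1784 to 1908 CPM in WT footprints, so the cultures held several cell types. Much of that sum was Aldoc, at 916 to 1094 CPM. Gfap had 45.4 to 168 CPM, Aqp4 27.6 to 57.1 CPM and S100b 10.3 to 15.7 CPM, so the sum does not measure the share of astrocytes. In such bulk samples, fewer cells of a type and less RNA per cell cannot be told apart.

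A pair of short exons is shown first, because the isoforms compared further on differ in them, among other segments, and because the series is about microexons, very short exons that many neurons include. Cacna2d1 and Cacna2d2 each have an annotated 21-nt coding exon that keeps the reading frame, in each case exon 23 of 39. The exon of Cacna2d1 lies at chr5:16341990-16342010 and that of Cacna2d2 at chr9:107519179-107519199 (GRCm38, plus strand). Each is printed in the spliced mRNA 5′ to 3′, with the exon in capitals and 15 bases of the exons on either side in lower case.

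Cacna2d1 exon: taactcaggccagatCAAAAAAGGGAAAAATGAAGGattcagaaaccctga

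Cacna2d2 exon: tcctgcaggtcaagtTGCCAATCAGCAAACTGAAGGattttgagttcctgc

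The aligned exons have the same base at 12 of 21 positions, and both end in TGAAGG. They occupy the same place in the exon order of the genes.

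The Cav2 genes made up most of the alpha1 level in these cultures. Levels can be compared between genes only per length, so footprints were divided by the coding length and RNA by the transcript length of the protein-coding isoforms. Each length was an average weighted by the counts assigned to the isoforms in that assay, and those assignments were uncertain for several genes. On that scale Cacna1a, Cacna1b and Cacna1e together held 69.5% to 72.5% of the summed alpha1 footprints and 61.5% to 62.9% of the summed alpha1 RNA over the 4 cultures. The L-type genes Cacna1c and Cacna1d of the Cav1 family held 13.9% to 15.3% of the footprints and 17.9% to 19.4% of the RNA. The T-type genes Cacna1g, Cacna1h and Cacna1i of the Cav3 family, which open at low voltages, held 13.4% to 15.1% of the footprints and 18.5% to 20% of the RNA. These shares varied by at most a few percentage points between the cultures of both genotypes.

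In RNA per kb, Cacna1b ranked first with a mean of 13.6 CPM per kb (range over the 4 cultures 12.7 to 14.5), followed by Cacna2d1 with 11.4 (10.1 to 12.7), and the ranges of this pair overlapped. Cacna1a (7.39) and Cacna2d2 (6.68) came next and overlapped each other, as did Cacna1c (4.81) and Cacna1e (4.65). Cacna1g followed at 3.72, with Cacna1h (2.96) and Cacna1d (2.85) overlapping below it, and Cacna1i was last at 1.2 CPM per kb (1.1 to 1.39), a level 11.3-fold below that of Cacna1b. Among the 12619 genes with such a level, the RNA of the 10 genes ranged from the 10.9th percentile for Cacna1i to the 57.8th for Cacna1b.

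The order differed in footprints. Cacna2d2 ranked first with 36.4 CPM per coding kb (32.7 to 40.2) and did not overlap with any other of the 10 genes. Cacna1a followed with 20.4 (19 to 21.6), and its range overlapped with that of Cacna2d1 at 18 (14.5 to 21.7), which in turn overlapped with Cacna1b at 15.2 (12.6 to 16.4). Cacna1e (6.47), Cacna1c (5.15) and Cacna1g (4.76) formed a middle group in which neighbours overlapped. Cacna1d (3.39), Cacna1h (2.56) and Cacna1i (0.973) were each separate from their neighbours. The footprint levels spanned 37.5-fold from the first to the last gene, against 11.3-fold in RNA.

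**Figure D1:**
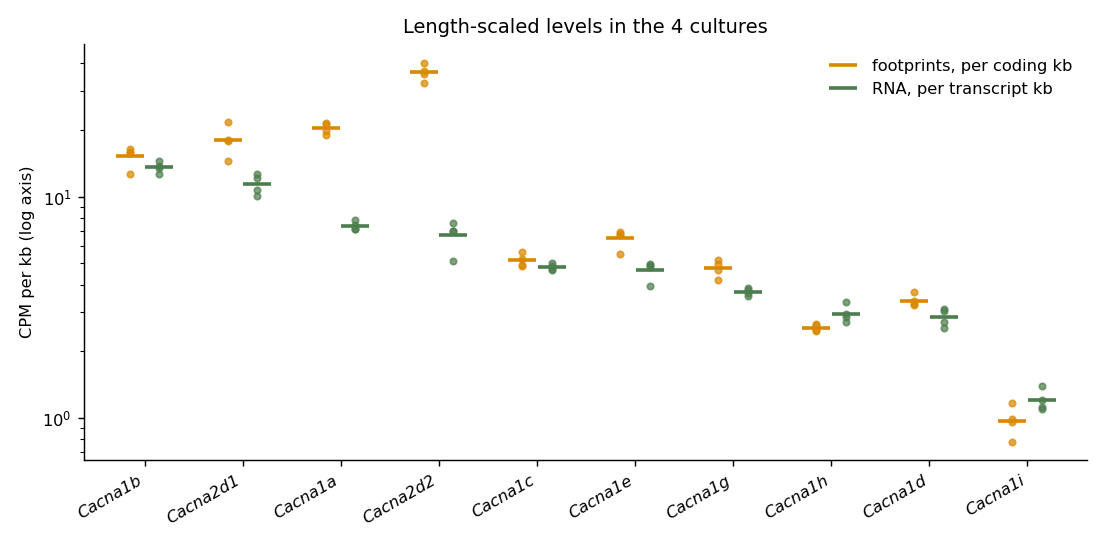
Levels of the 10 calcium channel genes per kilobase on a log axis, with footprints per coding kb (orange) left of RNA per transcript kb (green), genes ordered by RNA. Points are the 4 cultures and bars their means. Cacna2d2 lies at 36.4 CPM per kb in footprints, above every other gene, and at 6.68 CPM per kb in RNA, below Cacna1b, Cacna2d1 and Cacna1a.

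Genotype comparison came next, and none of the 10 genes was called different between DKO and WT neurons, in footprints, in RNA or in footprints relative to RNA. A gene was called where edgeR's quasi-likelihood test gave a Benjamini-Hochberg adjusted p under 0.05 over the 12898 genes tested. The background was as sparse: 0.00775% of all genes tested were called in footprints, 0.0155% in RNA and 0.0% in footprints relative to RNA. At an unadjusted p under 0.05, 1 of the 10 genes passed in footprints, 0 in RNA and 0 in the ratio, while 725, 719 and 110 of all genes tested passed. DESeq2 called 0 of the 10 genes in each of the 3 comparisons, and 5, 13 and 1 of all genes. The main fit had no term for the culture that footprints and RNA share. With a term for each culture, 0 of the 10 genes were called in the ratio as well.

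Cacna2d1 (ENSMUSG00000040118, chromosome 5, 15934691 to 16374511, GRCm38) encodes an alpha2delta subunit that binds gabapentin and promotes the delivery of channels to terminals. It had 70.4 and 58.5 CPM in DKO footprints, against 57.7 and 47 CPM in WT footprints. In RNA it had 78.5 and 82.3 CPM in DKO, against 65.7 and 69.4 CPM in WT. Both DKO libraries lay above both WT libraries in each assay. The log2 difference was 0.29 ± 0.12 (SE) in footprints, with a 95% interval of 0.02 to 0.56 (unadjusted p = 0.0352, adjusted p = 0.849 by edgeR), and the RNA difference was 0.25 ± 0.12 (adjusted p = 0.851 by edgeR). Without WT replicate 2 the footprint difference was 0.15, and without DKO replicate 1 it was 0.16, while without WT replicate 1 it was 0.42. Relative to RNA, the footprints differed by 0.04 ± 0.17.

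Cacna2d2 (ENSMUSG00000010066, chromosome 9, 107399612 to 107529343), the alpha2delta gene whose loss causes ataxia and seizures in the ducky mouse, lay on the other side. It had 133 and 128 CPM in DKO footprints, against 155 and 138 CPM in WT footprints. Its RNA stood at 29.4 and 40.7 CPM in DKO, against 39.3 and 43.2 CPM in WT. The genotypes did not overlap in footprints and overlapped in RNA, where DKO replicate 1 was the low library. The log2 difference was -0.17 ± 0.14 in footprints (95% interval -0.47 to 0.13, adjusted p = 0.871 by edgeR) and -0.25 ± 0.14 in RNA (95% interval -0.56 to 0.06, adjusted p = 0.851), which did not pass. Leaving out libraries moved the RNA value between -0.49 (without DKO replicate 2) and -0.01 (without the RNA of DKO replicate 1), and the footprint value between -0.25 and -0.08. Relative to RNA, the footprints differed by 0.08 ± 0.20. Of the length-scaled footprints of Cacna2d1 and Cacna2d2 together, Cacna2d2 held 62.4% and 64.4% in DKO and 69.3% and 71.8% in WT. In RNA it held 29.9% and 35.6% in DKO and 40.9% and 41.5% in WT. The share was thus lower in both DKO cultures than in both WT cultures in each assay, a description of 2 cultures a genotype with no test. It sets against each other 2 genes already seen to lie on opposite sides, and it leaves out the alpha2delta gene Cacna2d3.

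**Figure D2:**
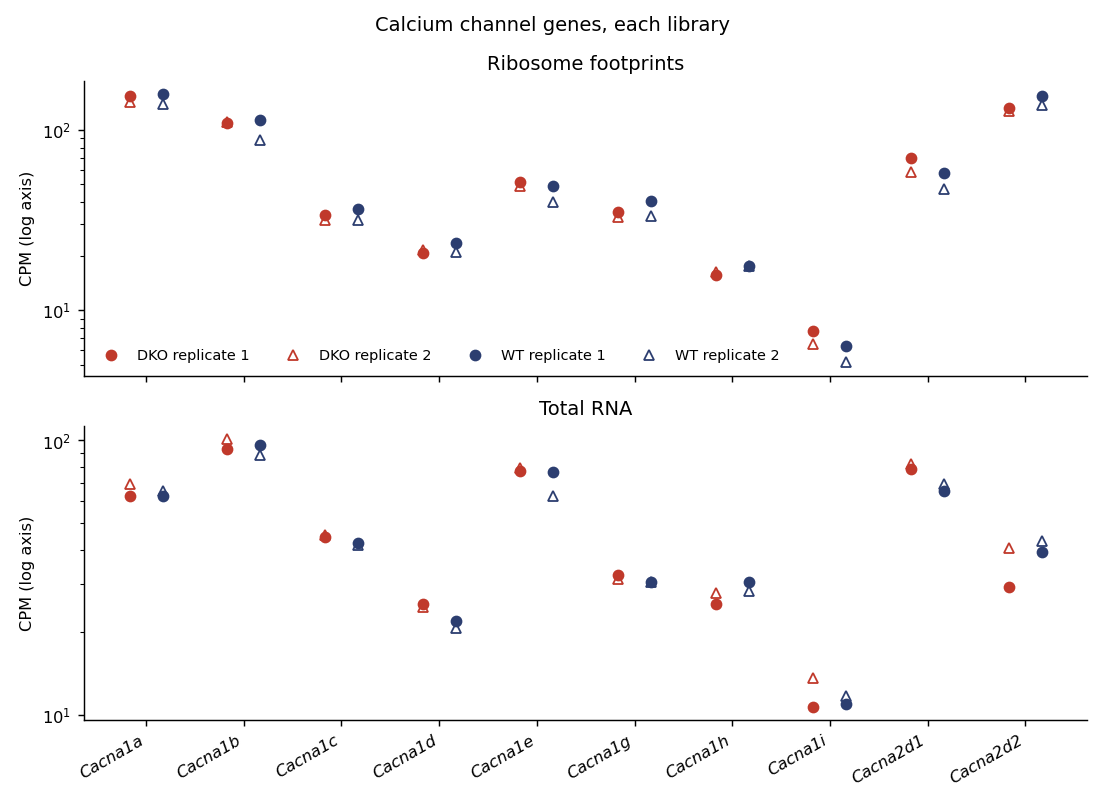
CPM of each calcium channel gene in every library on a log axis, footprints above and RNA below, with DKO (red) left of WT (blue), filled circles for replicate 1 and open triangles for replicate 2. For Cacna2d1 the red points lie above the blue ones in each panel, with 70.4 and 58.5 CPM in DKO footprints against 57.7 and 47 CPM in WT.

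Among the Cav2 genes, Cacna1a (ENSMUSG00000034656, chromosome 8, 84388440 to 84640246), which encodes the P/Q-type channel that drives release at many central synapses, showed the closest match between genotypes. It had 155 and 144 CPM in DKO footprints and 158 and 139.8 CPM in WT footprints, or 149.6 ± 7.92 and 149 ± 13.2 CPM (SD, n = 2 each). In RNA it had 62.6 and 69.5 CPM in DKO and 62.8 and 65.6 CPM in WT. The log2 difference in footprints was 0.00 ± 0.10, with a 95% interval of -0.22 to 0.22, that in RNA was 0.04 ± 0.10 and that of footprints relative to RNA was -0.04 ± 0.14.

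Cacna1b (ENSMUSG00000004113, chromosome 2, 24603887 to 24763152), the gene of the N-type channel and target of omega-conotoxin, had 110.2 and 111 CPM in DKO footprints, against 114 and 87.8 CPM in WT footprints. The low library was WT replicate 2, and the genotypes overlapped. The log2 difference was 0.13 ± 0.12 with both WT cultures and -0.05 without the footprints of WT replicate 2. Its RNA was 93.3 and 101 CPM in DKO and 96 and 88.4 CPM in WT, a log2 difference of 0.08 ± 0.12, and the ratio of footprints to RNA differed by 0.05 ± 0.17. Cacna1e (ENSMUSG00000004110, chromosome 1, 154390731 to 154884501), the gene of the R-type channel, had 51.7 and 49.2 CPM in DKO footprints, against 49 and 39.8 CPM in WT footprints, and 77.6 and 79.1 CPM in DKO RNA, against 76.5 and 62.8 CPM in WT RNA. Its DKO libraries lay above the WT libraries in both assays, WT replicate 1 by a small margin, with log2 differences of 0.18 ± 0.12 and 0.17 ± 0.12. Without both libraries of WT replicate 2 these differences of Cacna1e were 0.04 in footprints and 0.03 in RNA, so both rested on that culture. Its ratio differed by 0.01 ± 0.17.

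The L-type genes did not pass the test in either assay. Cacna1c (ENSMUSG00000051331, chromosome 6, 118587240 to 119196418), the main L-type gene of heart and brain, had 33.8 and 31.8 CPM in DKO footprints and 36.5 and 31.9 CPM in WT footprints (log2 difference -0.07 ± 0.10). Its RNA was 44.5 and 45.3 CPM in DKO and 42.3 and 41.7 CPM in WT (0.10 ± 0.10). Cacna1d (ENSMUSG00000015968, chromosome 14, 30039939 to 30491455), whose channel opens at lower voltages and paces firing, had 20.8 and 21.7 CPM in DKO footprints and 23.7 and 21.1 CPM in WT footprints, so that the genotypes overlapped. Its RNA was 25.4 and 24.8 CPM in DKO, against 22.1 and 20.8 CPM in WT, with both DKO libraries above. The log2 difference of Cacna1d was -0.08 ± 0.12 in footprints and 0.23 ± 0.11 in RNA (unadjusted p = 0.0599). The difference in footprints relative to RNA was therefore -0.31 ± 0.16, with a 95% interval of -0.66 to 0.04 (unadjusted p = 0.0809, adjusted p = 0.9997), the lowest of the 10 genes. For Cacna1c that value was -0.16 ± 0.14.

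The T-type genes did not pass the test either. Cacna1g (ENSMUSG00000020866, chromosome 11, 94408391 to 94474198), the gene of a channel for burst firing, had 35.3 and 32.9 CPM in DKO footprints and 40.3 and 33.6 CPM in WT footprints (log2 difference -0.12 ± 0.11). Its RNA was 32.5 and 31.3 CPM in DKO and 30.5 and 30.5 CPM in WT (0.07 ± 0.11), and its ratio differed by -0.19 ± 0.15. Cacna1h (ENSMUSG00000024112, chromosome 17, 25374285 to 25433783), another T-type gene that is also expressed outside the brain, had 15.7 and 16.4 CPM in DKO footprints, against 17.6 and 17.6 CPM in WT footprints, and was lower in both DKO libraries in RNA as well (25.3 and 27.8 CPM, against 30.6 and 28.2 CPM in WT). Its log2 difference was -0.13 ± 0.12 in footprints and -0.15 ± 0.11 in RNA, and the ratio differed by 0.02 ± 0.16. Cacna1i (ENSMUSG00000022416, chromosome 15, 80287238 to 80398279), a T-type gene of slow kinetics found mainly in brain, had 7.7 and 6.5 CPM in DKO footprints, against 6.31 and 5.16 CPM in WT footprints. With only 71 to 112 counts per footprint library, its log2 difference of 0.29 ± 0.20 had the widest interval of the 10 genes, -0.15 to 0.73. Leaving out libraries moved it between 0.15, without WT replicate 2, and 0.45, without the footprints of WT replicate 1. Its RNA was 10.7 and 13.6 CPM in DKO and 11 and 11.7 CPM in WT (0.08 ± 0.18), and its ratio differed by 0.21 ± 0.27.

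Over the 10 genes, both DKO libraries lay above both WT libraries for 3 in footprints (Cacna1e, Cacna1i and Cacna2d1), against 16.3% of all genes tested, and below them for 2 (Cacna1h and Cacna2d2), against 16.2%. The 5 without overlap compare with 32.5% of all genes tested. In RNA 5 lay above (Cacna1c, Cacna1d, Cacna1e, Cacna1g and Cacna2d1), against 19.6% of all genes, and 1 below (Cacna1h), against 18.9%, so that 6 had no overlap, against 38.4%. The median log2 difference of the 10 genes was -0.03 in footprints, 0.08 in RNA and 0.01 in footprints relative to RNA, against 0.00, 0.00 and 0.01 over all genes tested. Values above 0 were found for 5, 8 and 6 of the 10 genes, against 50.8%, 49.6% and 53.1% of all genes. The standard errors were 0.10 to 0.20 in footprints, 0.10 to 0.18 in RNA and 0.14 to 0.27 in the ratio. No 95% interval in footprints reached beyond -0.47 or 0.73.

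Without both libraries of WT replicate 2, which leaves 1 WT culture, no gene of the 10 was called. The footprint differences were then -0.08 for Cacna1a, -0.05 for Cacna1b, -0.16 for Cacna1c, -0.16 for Cacna1d, 0.04 for Cacna1e, -0.25 for Cacna1g, -0.13 for Cacna1h, 0.15 for Cacna1i, 0.15 for Cacna2d1 and -0.25 for Cacna2d2. Cacna1a and Cacna1b thus changed sign, and Cacna1e, Cacna1i and Cacna2d1 came nearer to 0. In RNA they were 0.07, 0.02, 0.08, 0.19, 0.03, 0.07, -0.21, 0.13, 0.29 and -0.18 in the same order of genes, with no change of sign.

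**Figure D3:**
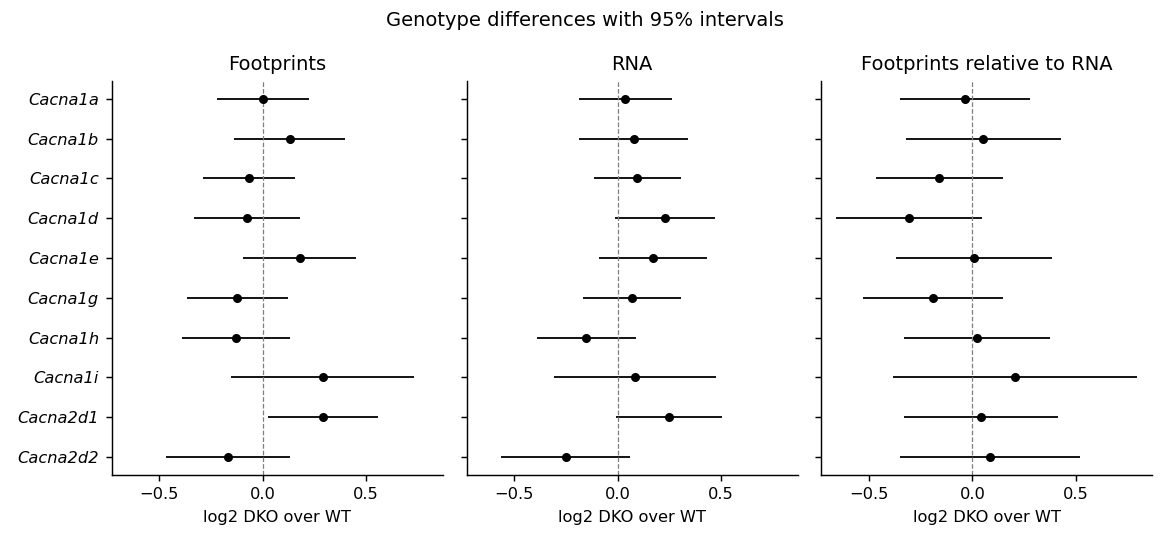
Log2 difference of DKO over WT for each calcium channel gene in footprints, RNA and footprints relative to RNA, with points for the estimate and lines for the 95% interval. The interval of Cacna2d1 in footprints, 0.02 to 0.56, is the 1 interval that leaves out 0.

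Marker sums of cell types are given beside these small differences, and some of the sums did not overlap between the genotypes. Summed oligodendrocyte markers, with 0 of 6 tested genes called, were 399.7 and 440.0 CPM in DKO footprints and 518 and 705 CPM in WT footprints. Markers of proliferating cells (0 of 6 called) were 413 and 404 CPM in DKO and 464 and 559.7 CPM in WT. Both sums, and that of the astrocyte markers, were also lower in DKO in RNA. There the oligodendrocyte sum was 357 and 398 CPM in DKO and 523 and 613 CPM in WT. Of the 7 astrocyte markers (0 called), 2 in footprints and 1 in RNA had a positive log2 difference. Markers of fibroblast, mural and smooth muscle cells (0 of 7 called) overlapped, at 519 and 168 CPM in DKO footprints and 303 and 845 CPM in WT footprints. Glutamatergic markers were 427 and 390.3 CPM in DKO footprints and 369 and 238 CPM in WT footprints, with the low value in WT replicate 2. Nearly all of this sum was Slc17a6 and Grin1. Slc17a6 had 234 and 194 CPM in DKO and 166 and 74.3 CPM in WT, and Grin1 had 185 and 188 CPM in DKO and 194 and 154 CPM in WT. Of the 5 tested glutamatergic markers (0 called), 2 in footprints and 1 in RNA had a positive log2 difference. GABAergic markers, at 722 and 762 CPM in DKO and 787 and 656 CPM in WT, overlapped. The part of these cells in the values of the channel genes was not tested. The skeletal muscle alpha1 gene Cacna1s and the retinal alpha1 gene Cacna1f were near 0, at no more than 0.124 and 0.717 CPM in any library.

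Footprints relative to RNA varied far more between the channel genes than between the genotypes. The contrast was footprints minus RNA, averaged over DKO and WT, in the same model. Of the 10 genes 8 were called, 3 higher and 5 lower, near the 74.8% of all genes tested that were called (36.5% higher and 38.2% lower), so the positions of single genes carry the information. The count of genes called is thus no feature of this family.

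Cacna2d2 had the highest value. Its footprint CPM was 4.53 and 3.15 times its RNA CPM in the DKO cultures and 3.95 and 3.19 times in the WT cultures. Every culture thus lay far above the median gene, whose ratio was 0.979 to 1, near 1 by the scaling over both assays. The log2 difference of Cacna2d2 was 1.87 ± 0.10 (adjusted p = 1.825e-08, edgeR quasi-likelihood test), 3.69-fold over the median gene and at the 97.9th percentile. Cacna1a followed with ratios of 2.48 and 2.07 in DKO and 2.52 and 2.13 in WT, a log2 difference of 1.20 ± 0.07 (adjusted p = 2.873e-08) at the 92.2nd percentile. Its ratio was higher in replicate 1 than in replicate 2 of each genotype. The same order held for every channel gene described here except Cacna1d and Cacna1h, so it is no feature of Cacna1a.

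At the other end, the T-type gene Cacna1i had ratios of 0.718 and 0.48 in DKO and 0.574 and 0.44 in WT, with a log2 difference of -0.88 ± 0.13 at the 16.9th percentile. Cacna1h followed with -0.73 ± 0.08 (21.3rd percentile) and ratios of 0.622 and 0.59 in DKO and 0.574 and 0.624 in WT. Cacna1e stood at -0.64 ± 0.09, Cacna1c at -0.37 ± 0.07 and Cacna2d1 at -0.34 ± 0.08, all called lower. Cacna2d1 was not called in 1 of 12 fits that left out libraries, that without DKO replicate 2 (-0.26). The 3 remaining genes lay near the median: Cacna1g at 0.18 ± 0.08 (adjusted p = 0.0486), Cacna1b at 0.16 ± 0.09 (adjusted p = 0.109) and Cacna1d at -0.09 ± 0.08 (adjusted p = 0.338). Cacna1b was called with the culture as a block (0.15). Cacna1g was not called with a mean count of at least 50, with DESeq2, with limma-voom or with coding isoforms only, nor in 10 of the 12 fits that left out libraries. TMM scaling within each assay, which moved the median of all genes by -0.23, turned Cacna1b to -0.07 and Cacna1g to -0.05.

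Footprints come from the coding sequence and RNA reads from the whole transcript, so long untranslated regions lower the ratio in CPM. The ratio was also scaled to the coding and transcript lengths used above, as an alternative chosen after seeing the data. These lengths rest on the isoform assignments. With this scaling 74.7% of 12389 genes were called (35.4% higher and 39.3% lower). Of the 10 genes, Cacna2d2 and Cacna1a alone lay above the median gene, both called higher. Cacna2d2 was 2.64-fold above it (log2 1.40, 90.8th percentile), and Cacna1a was 1.32-fold above it (log2 0.41, 66.1st percentile). The other 8 genes lay below it and were called lower. They ran from Cacna2d1 at 0.758-fold (34.6th percentile) through Cacna1e, Cacna1g, Cacna1d, Cacna1b and Cacna1c to Cacna1h at 0.417-fold (11.3rd percentile) and Cacna1i at 0.387-fold (9.67th percentile). Cacna1a and Cacna1b, both genes of presynaptic Cav2 channels, thus lay at the 66.1st and the 19th percentile. All Cacna1b counts fell on Cacna1b-201, annotated at 6984 nt with a coding length of 6981 nt. Its position in both scales therefore rests on an annotation with almost no untranslated sequence. Cacna1a-201 is annotated at 7926 nt with a coding length of 7104 nt.

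**Figure D4:**
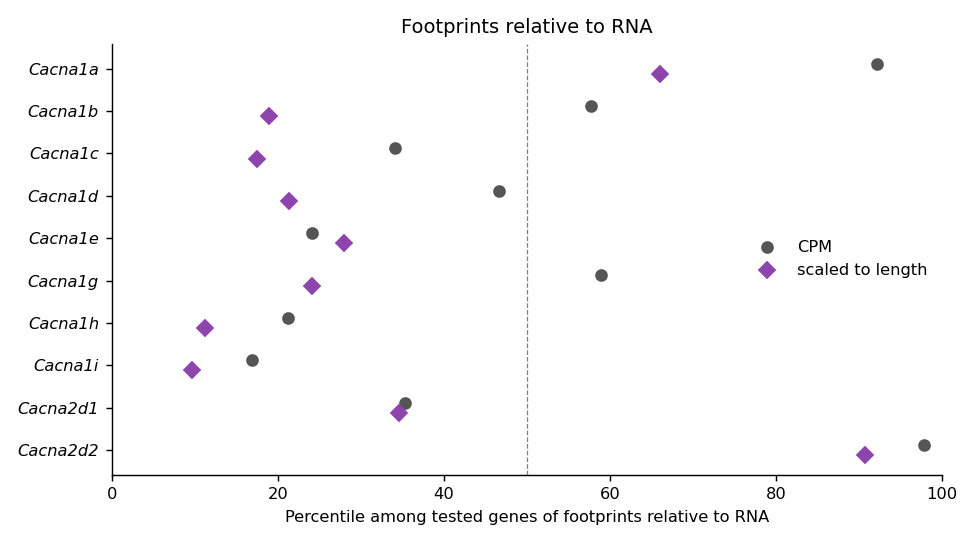
Percentile of each calcium channel gene among all genes tested for footprints relative to RNA, in CPM (grey circles) and scaled to length (purple diamonds), with the median gene as a dashed line. Cacna2d2 is at the 97.9th and 90.8th percentiles, and Cacna1i at the 16.9th and 9.67th.

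The sequence around the start codon is read by the scanning ribosome, and it is shown for the pair of genes with the highest and the pair with the lowest ratio. Each line gives, from the annotated coding isoform with the most RNA that has 10 bases before the start, those bases and 7 bases after the start codon, which is in capitals (GRCm38).

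Cacna2d2 start: gaatggaaacATGgcggtgc

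Cacna1a start: tctttgcagaATGgcccgct

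Cacna1h start: ctctgccaccATGaccgagg

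Cacna1i start: ccacgctgacATGgctgaca

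All 4 printed sequences have a purine at position -3, counted back from the A of the start codon. That of Cacna1h alone lacks a G after the start codon. Of the 9 channel genes with such a sequence (all but Cacna1b), 8 have the purine, 7 the G and 6 both. Over 17418 genes the shares are 85.2%, 49.7% and 42.3%. These counts are a description, and Cacna2d2, Cacna1a and Cacna1i, from both ends of the order, have both features. The isoforms were chosen by RNA and did not always receive most of the footprints. Cacna1h-205, the source of the Cacna1h line, was assigned 0% to 6.61% of the Cacna1h footprints. Cacna1h-202, with a shorter coding length, was assigned 43.4% to 85.6%. Cacna2d2-205, the source of the Cacna2d2 line, was assigned 19.4% to 33.8% of the Cacna2d2 footprints. Which start codon these footprints came from was not tested.

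The isoforms to which kallisto assigned the counts differed between the assays most for Cacna2d1. Among its long coding isoforms, those with the 21-nt exon received 98.1% and 98.2% of the counts in DKO footprints and 99.6% and 99.4% in WT footprints. In RNA they took 9.77% and 16.4% in DKO and 12.9% and 11.5% in WT. The footprints lay almost wholly on isoform Cacna2d1-204, of 3412 nt with a coding length of 3258 nt, and the RNA mostly on Cacna2d1-202, of 7311 nt with a coding length of 3252 nt. These isoforms differ in the exon printed above, in a 15-nt segment at chr5:16326312-16326326 that Cacna2d1-204 lacks, and in the length of the untranslated regions. Counts are shared among isoforms over the whole transcript and not read from the exon itself, so neither share measures how often the exon was included. Within each assay the shares changed by only a few percentage points between the genotypes.

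For Cacna2d2 the isoform with the 21-nt exon, Cacna2d2-205, took 34.7% and 38.3% in DKO footprints and 21.7% and 25.7% in WT footprints. In RNA it took 33.2% and 9.92% in DKO and 32.7% and 37.6% in WT. In footprints the DKO shares thus lay above the WT shares, while in RNA DKO replicate 2 was far below the other 3 libraries. The assays gave opposite orders of the genotypes' means, and no test was made of shares that rest on estimated isoform counts.

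**Figure D5:**
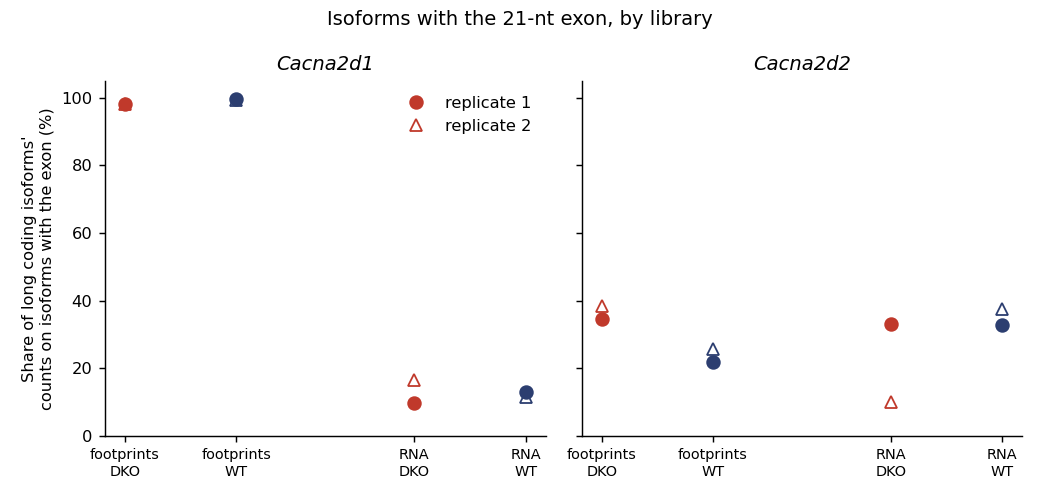
Share of the counts of long coding isoforms that fell on isoforms with the 21-nt exon of Cacna2d1 (left) and Cacna2d2 (right), with DKO (red) left of WT (blue) within each assay, circles for replicate 1 and triangles for replicate 2. For Cacna2d1 the footprint libraries lie at 98.1% to 99.6% and the RNA libraries at 9.77% to 16.4%.

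Other genes showed the same uncertainty of isoforms. The Cacna1c footprints lay mostly on Cacna1c-203 and Cacna1c-222, and Cacna1c-222 had a count of 0 in every RNA library. Cacna1h RNA lay on Cacna1h-205 in DKO replicate 1 (1011 counts) and on Cacna1h-202 in DKO replicate 2 (400 counts), with 0 on the other isoform in each. A retained-intron transcript of 604 nt, Cacna2d2-206, had 79 and 120 footprint counts in DKO and 170 and 100 in WT, but 2 and 0 RNA counts in DKO and 0 and 3 in WT. Of its 25-base words, 95.3% also occur in other Cacna2d2 isoforms and 0.0% in other genes. Such non-coding isoforms held 6.79% to 12% of the Cacna2d2 footprints and 13.7% to 23.7% of the Cacna1h footprints. With coding isoforms only, 0 of the 10 genes were called between genotypes as well. Cacna1c, Cacna1d and Cacna1h overlap other coding genes on the opposite strand, and the use of strand in counting is not stated in the labels.

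The auxiliary subunits outside the 10 genes gave the same picture between genotypes. Of 14 listed beta, gamma and further alpha2delta genes, 11 were tested, and Cacna2d4, Cacng1 and Cacng6 were too low. None of the 11 was called between DKO and WT in footprints, in RNA or in the ratio by edgeR, and their median log2 difference was 0.07 in footprints and 0.09 in RNA. The smallest p in footprints belonged to Cacnb2, a beta subunit, with 6.24 and 6.44 CPM in DKO and 7.55 and 8.5 CPM in WT (-0.33 ± 0.16), and to Cacng7, a gamma subunit of AMPA receptor complexes, with 69.3 and 62.6 CPM in DKO and 74 and 79.1 CPM in WT (-0.22 ± 0.11). Both had an adjusted p of 0.849. For footprints relative to RNA, 6 of the 11 were called higher, including Cacng7 (2.11) and Cacng3 (1.74), and 3 lower, including Cacnb2 (-1.44) and the beta subunit gene Cacnb4 (-1.35), where 36.5% of all genes tested were called higher and 38.2% lower. Cacna2d3, a further alpha2delta gene, is added here after its values were seen. It had 75.8 and 87.3 CPM in DKO footprints, against 103 and 96.9 CPM in WT footprints, and 38.4 and 54.6 CPM in DKO RNA, against 62.2 and 61.2 CPM in WT RNA. Both DKO libraries lay below both WT libraries in each assay, with log2 differences of -0.29 ± 0.15 in footprints and -0.42 ± 0.15 in RNA (unadjusted p = 0.0169, adjusted p = 0.851, edgeR).

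Partners and downstream genes of the channels were not called between genotypes either. Of 18 tested binding partners and regulators, 0 passed, and the smallest p belonged to Rrad, a small GTPase that inhibits channels through the beta subunit. Rrad had 15.4 and 10.5 CPM in DKO footprints, against 6.42 and 2.83 CPM in WT footprints, a log2 difference of 1.45 ± 0.41 (adjusted p = 0.837). Stac2, an adaptor that binds L-type channels, had 24.1 and 17.7 CPM in DKO, against 15.8 and 10.1 CPM in WT (0.67 ± 0.22). Of 17 tested calcium-dependent enzymes and effectors 0 passed, with Kcnn1, a calcium-activated potassium channel, at 0.46 ± 0.18 and the kinase Camk4 at -0.18 ± 0.10. Of 14 tested genes for calcium clearance, buffering and store release 0 passed, with the store channel Itpr1 at -0.42 ± 0.25 and the calcium pump Atp2b2 at -0.20 ± 0.12.

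The genes whose level followed the mean profile of the 10 genes most closely over the 8 libraries, after centring each assay, were Smc6 (Pearson r = 0.981), Nxph4 (0.978), Stxbp5 (0.973), Eml6 (0.967) and Cdyl2 (0.962). The libraries come from only 4 cultures, so these are descriptions of 4 cultures and carry no p.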

How the data were processed

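The authors deposited estimated counts for each Ensembl transcript, from footprints and total RNA, all of them whole numbers. The submitters' processing notes name Trimmomatic, FastQC, kallisto and Bowtie, with no version, role or order. The build, transcript set and settings behind them were not given in the sources used here. Of 60528 transcripts, 60444 matched GENCODE M21 (GRCm38), and the other 84 (0.0765% to 0.1511% of the counts of a library) were left out. Counts were summed per gene, retained-intron and other non-coding isoforms included.

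All 8 libraries entered 1 robust quasi-likelihood fit with TMM scaling in edgeR 4.0.16 under R 4.3.3 (limma-voom from limma 3.58.1), with a mean for each of 4 groups and 4 residual degrees of freedom. Genes passing filterByExpr (minimum count 10) in both assays were tested, 12898 of 18301. Contrasts set DKO against WT within each assay and for the ratio of footprints to RNA (the interaction), and footprints against RNA over both genotypes. Precision is limited by 2 libraries in each group. The procedure was tested on simulated data. CPM scale to the counts of the tested genes in a library times its TMM factor, fitted over both assays.

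Libraries of 1 genotype and number were paired across assays by their culture codes, which are spelled differently for DKO replicate 2. The deviations of the assays correlated at 0.211 in DKO and 0.605 in WT across genes. The alternatives tried were replicate blocks, omission of each library or culture, DESeq2 1.42.0, limma-voom, other filters, RLE scaling, TMM by assay, coding isoforms only and fits of 1 assay. Length scaling and a crossed block were added after seeing the data.

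All 10 genes are named. From each further list the 2 genes of smallest p in footprints are named where none was called. Here this was done for the lists of channel subunits, partners, effectors and clearance. Marker lists are given as sums, with some markers named to describe the cultures. A further rule names the 5 genes of most similar profile. The members, lists and rules were chosen with earlier results of these data known. Listed genes such as Nalcn and Ryr1 were not analysed here. Start sequences and exons were read from the GENCODE M21 transcript sequences, with coordinates on GRCm38.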

Additional observations from a re-analysis of the deposited data

How the results depend on the processing

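None of the 10 genes was called between DKO and WT under any alternative. The number of all genes called in footprints was 1, and 3 with no filter, 2 with a mean count of at least 50, 5 with DESeq2, 11 with the replicate number as a block and 9 with crossed numbers. In RNA it was 2, and 6 with no filter, 13 with DESeq2, 1 in RNA alone, 10 with the replicate block and 11 with crossed numbers. In the ratio it was 0, 1 with DESeq2 and 2 with coding isoforms only. Leaving out libraries or cultures gave 0 to 508 in footprints, 0 to 381 in RNA and 0 to 1 in the ratio, the highest without both libraries of WT replicate 1 in footprints and RNA. Such fits leave 1 library in a group, here that of WT replicate 2, which is assumed to vary like the other groups. DKO and WT cultures share only a replicate number (correlation -0.132 in footprints and -0.128 in RNA). Cacna1a in footprints turned to -0.00115 with TMM within each assay, -0.00486 with no filter, -0.00216 with a mean count of at least 50, -0.000906 in footprints alone and -0.00205 with coding isoforms. Cacna1e in the ratio turned to -0.000522 with RLE, -0.00404 with no filter and -0.0405 with coding isoforms. For footprints minus RNA, Cacna1b was -0.0718 and Cacna1g -0.0478 with TMM within each assay, and -0.95 and -0.76 scaled to length. The members called there were 8, and 7 to 10 under the alternatives other than leaving out libraries, which gave 6 to 9. Leaving out libraries moved the footprint differences from -0.0846 to 0.0964 for Cacna1a, -0.0456 to 0.333 for Cacna1b, -0.158 to 0.0375 for Cacna1c, -0.156 to 0.0148 for Cacna1d and -0.245 to 0.018 for Cacna1g. In RNA it gave -0.0369 to 0.126 for Cacna1a and -0.0837 to 0.266 for Cacna1i. In the ratio it gave -0.165 to 0.0937 for Cacna1a, -0.123 to 0.256 for Cacna1b, -0.183 to 0.168 for Cacna1e, -0.105 to 0.0844 for Cacna1h, -0.0768 to 0.504 for Cacna1i, -0.139 to 0.208 for Cacna2d1 and -0.174 to 0.352 for Cacna2d2. The causes of these shifts were not tested.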
